A study of Mus musculus with 10 samples.

Results

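Ttc3, Usp25, Usp16, Psmg1 and Wrb are the genes of the Dp1Tyb duplicated region grouped here for their roles in removing, refolding or placing proteins. They were taken by symbol, matched to the Ensembl gene identifiers of the count table through the GENCODE annotation of GRCm38, and make up 5 of the 250 genes of the duplicated region and of 43629 genes in all. The data were RNA sequencing counts from the whole hippocampus of 10 mice, 5 WT and 5 Dp1Tyb, with 1 library per mouse. Dp1Tyb mice, labelled Dp(16Lipi-Zbtb21)1TybEmcf, carry a duplication of the part of mouse chromosome 16 (Mmu16) from Lipi to Zbtb21, which is orthologous to human chromosome 21, so that each of these genes is present in 3 copies against 2 in the wild-type controls. The strain label of all mice was C57BL/6J.129P2 and their labelled age 18 weeks, and the methods of the study describe male littermates from a line backcrossed to C57BL/6JNimr. The duplication is inherited and present in every cell, and the hippocampus was sequenced whole, so the values average over neurons, glia and vessels. A lower number of cells of a type and less RNA per cell cannot be told apart in such samples.

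Cells dispose of proteins mainly by attaching ubiquitin to them, a step carried out by E3 ubiquitin ligases and undone by deubiquitinases, and by degrading the tagged proteins in the proteasome. Ttc3 is an E3 ubiquitin ligase that binds the active form of the kinase Akt and has been linked to neurite outgrowth. Usp25 and Usp16 are deubiquitinases of the ubiquitin-specific protease family, and Usp16 removes ubiquitin from histone H2A, a mark that Polycomb complexes write. Psmg1 is a chaperone that pairs with Psmg2 to assemble the outer rings of the 20S proteasome core. Wrb, now also called Get1, forms with Camlg the receptor at the endoplasmic reticulum that receives tail-anchored membrane proteins, among them many SNARE proteins of the secretory pathway.

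The 5 genes are spread over the duplicated region of Mmu16, and all are protein coding. In GRCm38, Usp25 (ENSMUSG00000022867) lies at positions 77013706 to 77116780, near the proximal end, and Usp16 (ENSMUSG00000025616) at 87454703 to 87483517. Ttc3 (ENSMUSG00000040785) lies at 94370618 to 94469343, Psmg1 (ENSMUSG00000022913) at 95979933 to 95990960 and Wrb (ENSMUSG00000023147) at 96145407 to 96157852. Psmg1 is on the minus strand and the others are on the plus strand. Of these genes, 3 share exon bases with a gene on the other strand. Ttc3 shares 326 bases with Pigp, or 2.01% of its exon length. Usp16 shares 192 bases with Cct8, or 2.03%. Wrb shares 505 bases, or 11.6%, with the antisense gene AC164647.1, which has no row in the count table. The counting was not stated to use strand, so reads in these stretches cannot be assigned with certainty. The promoters are printed because they lie inside the duplicated region with the genes. Whether their letters bear on the expression of the members was not tested. Each sequence is the 250 bases before the RefSeq start site in GRCm38.p6, read 5′ to 3′ on the strand of the gene, at chr16:94370489-94370738 for Ttc3, chr16:77013819-77014068 for Usp25, chr16:87454735-87454984 for Usp16, chr16:95990961-95991210 for Psmg1 (minus strand) and chr16:96145150-96145399 for Wrb. For Usp25, Usp16 and Ttc3 the RefSeq start site lies inside the gene bounds given above. The windows of Usp25 and Usp16 therefore lie wholly inside those bounds, and that of Ttc3 runs past the gene start. These windows may include transcribed bases. Those of Psmg1 and Wrb lie wholly before the gene. Capitals mark matches to any of the 6 motifs searched on both strands: the GC box GGGCGG, the CCAAT box CCAAT, the TATA box TATAAA, the ETS core CGGAAG, the E-box CACGTG and the cAMP response element core TGACG.
Ttc3: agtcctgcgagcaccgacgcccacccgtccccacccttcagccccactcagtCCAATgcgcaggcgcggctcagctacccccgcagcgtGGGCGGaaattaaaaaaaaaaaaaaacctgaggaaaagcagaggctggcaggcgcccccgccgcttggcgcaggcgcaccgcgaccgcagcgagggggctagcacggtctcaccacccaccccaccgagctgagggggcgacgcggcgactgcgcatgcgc
Usp25: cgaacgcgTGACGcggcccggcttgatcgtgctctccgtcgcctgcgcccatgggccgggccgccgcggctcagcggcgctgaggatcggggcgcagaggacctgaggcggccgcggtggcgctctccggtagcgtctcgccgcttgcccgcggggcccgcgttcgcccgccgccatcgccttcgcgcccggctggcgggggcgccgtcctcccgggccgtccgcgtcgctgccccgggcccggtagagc
Usp16: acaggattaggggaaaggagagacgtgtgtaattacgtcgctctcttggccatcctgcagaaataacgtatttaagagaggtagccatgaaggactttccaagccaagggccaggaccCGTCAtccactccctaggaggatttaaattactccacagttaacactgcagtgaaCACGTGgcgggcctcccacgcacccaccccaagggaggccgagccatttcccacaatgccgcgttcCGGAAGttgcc
Psmg1: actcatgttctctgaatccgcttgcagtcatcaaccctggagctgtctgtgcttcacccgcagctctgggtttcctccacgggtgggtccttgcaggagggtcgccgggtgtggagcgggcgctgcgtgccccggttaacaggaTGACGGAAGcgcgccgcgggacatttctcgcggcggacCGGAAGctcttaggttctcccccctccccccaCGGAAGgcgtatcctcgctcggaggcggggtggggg
Wrb: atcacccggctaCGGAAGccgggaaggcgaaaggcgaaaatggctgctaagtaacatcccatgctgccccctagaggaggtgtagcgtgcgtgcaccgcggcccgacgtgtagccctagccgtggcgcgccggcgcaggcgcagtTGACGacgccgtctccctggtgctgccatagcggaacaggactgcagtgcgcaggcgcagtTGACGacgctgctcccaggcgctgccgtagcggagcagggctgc

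The promoter of Usp25 was the richest in G and C, at 80% with 47 CpG pairs, and that of Usp16 the poorest, at 54% with 12, against medians of 52.4% and 6 over 32851 promoters of the same length. The TGACG core was present in 4 of the 5 promoters, all but that of Ttc3, and in 17.8% of all promoters. The ETS core CGGAAG was present in those of Usp16, Psmg1 and Wrb, with 3 matches for Psmg1, of which 1 overlaps its TGACG match, and in 13.6% of all promoters. The Ttc3 promoter held 1 GC box and 1 CCAAT box, which occur in 32.7% and 33.9% of promoters. Usp16 had the only E-box, found in 6.02% of promoters, and none of the 5 held the TATAAA letters. A match describes letters in this window and is not a bound site. For Usp25, Usp16 and Ttc3 the window lies wholly or partly inside the annotated gene. Its values there are not those of upstream sequence alone.

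Total counts per sample ranged from 18227684 to 43692270, and the members had between 159 counts (Psmg1) and 62059 counts (Ttc3) per sample, so that counting error was smallest for Ttc3 and largest for Psmg1. The labelled tissue was checked with 6 markers of hippocampal neurons, including Prox1 and Wfs1, which were all present, with a summed level of 962 to 1106 CPM (counts scaled to a common library size) in WT and 979 to 1067 in Dp1Tyb. None of the 6 was called, but 3 had an unadjusted p under 0.05 and lay in both directions: C1ql2 and Prox1, markers of the dentate gyrus, had log2 fold changes of −0.49 ± 0.13 SE and −0.18 ± 0.057 SE, and Neurod6, a marker of pyramidal neurons, 0.15 ± 0.048 SE (edgeR adjusted p = 0.0906, 0.184 and 0.176). Markers of the choroid plexus, a tissue that borders the hippocampus, varied widely: 7 of 7 were detected and their sum ran from 417 to 5324 CPM in WT and from 36.7 to 3809 in Dp1Tyb. Their log2 fold changes ran from −1.20 (Slc4a5) to −0.75 (Sostdc1), and 0 of the 7 were called by edgeR. The mean log2 level of this list differed by −1.81 ± 1.33 SE (exact permutation p = 0.214, adjusted 0.25). Astrocyte markers summed to 1067 to 1186 CPM in WT and 1233 to 1303 in Dp1Tyb, without overlap, and 1 of the 4, Gfap, was called higher in Dp1Tyb (log2 fold change 0.26 ± 0.047 SE, adjusted p = 0.0167, edgeR). Aqp4, Slc1a3 and Aldh1l1 were not called, at 0.22 ± 0.055 SE, 0.11 ± 0.047 SE and −0.0095 ± 0.047 SE (edgeR adjusted p = 0.0721, 0.33 and 0.947), so the list did not move as one. The mean log2 level of the astrocyte list differed by 0.14 (exact permutation p = 0.00794, or 0.0556 after adjustment over 7 marker lists). That of the 3 endothelial markers differed in the other direction, by −0.15 ± 0.041 SE (exact permutation p = 0.0159, adjusted 0.0556), with 4 of 5 Dp1Tyb mice below all WT mice, and 0 of the 3 were called. No marker of the 7 lists was at 0 in every sample. The part of choroid plexus, astrocyte, endothelial or neuronal content in the member values was not tested.

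All 5 genes were expressed in every mouse, at levels that differed by more than 10-fold per base of exon. In WT the order by RPKM, that is CPM divided by the exon length of the gene in kilobases, was Ttc3 at 58.7 ± 2.96, Wrb at 9.21 ± 0.247, Usp25 at 8.95 ± 0.406, Psmg1 at 6.42 ± 0.393 and Usp16 at 4.11 ± 0.236 (SD, n = 5). Ttc3 ranked 3 of the 114 duplicated genes that passed the filter on low counts, and Usp16 ranked 55. Wrb and Usp25 overlapped in WT, with RPKM ranges of 9.01 to 9.61 and 8.67 to 9.61, while the other neighbours in this order did not. In Dp1Tyb the order was the same, at 92.8 ± 5.56, 14.7 ± 0.598, 12.6 ± 0.556, 9.40 ± 0.630 and 6.18 ± 0.307 RPKM (SD, n = 5). There the lowest Wrb sample, at 13.7 RPKM, lay above the highest Usp25 sample, at 13.03 RPKM.

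The first question was whether each gene rose with its extra copy. All 5 genes were higher in Dp1Tyb and passed the test, an edgeR quasi-likelihood test called at an adjusted p under 0.05 over the 17237 genes tested. In this comparison 0.87% of all tested genes and 59.6% of the 114 tested duplicated genes were called higher in Dp1Tyb. For all 5 genes the lowest Dp1Tyb sample lay above the highest WT sample, which was so for 2.56% of all tested genes and for 62.3% of the duplicated genes. The fold changes ran from 1.40 for Usp25 to 1.597 for Wrb, around the ratio of 1.5 that 3 copies against 2 would give.

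The ubiquitin ligase gene Ttc3 had the highest level. Its expression in WT replicates 1 to 5 was 939, 970.0, 966, 1009 and 879 CPM, and in Dp1Tyb replicates 1 to 5 it was 1421, 1522, 1486, 1650.4 and 1444 CPM. The groups were 413 CPM apart at their nearest samples, and Dp1Tyb replicate 4 and WT replicate 4 were the highest of their groups. The WT mean was 953 ± 48.0 CPM and the Dp1Tyb mean 1505 ± 90.2 CPM (SD, n = 5 each). The log2 fold change was 0.66 ± 0.052 SE at an adjusted p of 9.99e-06, or 1.58-fold with a 95% interval of 1.46 to 1.71.

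Of the deubiquitinase genes, Usp25 had the smallest fold change of the 5 genes. It was at 45.2, 45.1, 50.002, 47.2 and 45.3 CPM in the WT samples and at 66.6, 61.0, 67.8, 67.6 and 64.1 CPM in the Dp1Tyb samples. WT replicate 3 was the highest control, and Dp1Tyb replicate 3 was the highest of all. The log2 fold change was 0.49 ± 0.045 SE (adjusted p = 3.18e-05), which is 1.40-fold (95% interval 1.31 to 1.503). Usp16 had 42.3, 39.3, 38.5, 37.7 and 36.3 CPM in WT and 59.3, 56.5, 60.7, 61.3 and 54.4 CPM in Dp1Tyb. Its groups were 12.1 CPM apart, with WT replicate 1 the nearest control. The log2 fold change was 0.59 ± 0.051 SE (adjusted p = 1.91e-05), or 1.504-fold (95% interval 1.39 to 1.62).

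The proteasome chaperone gene Psmg1 was the least abundant of the 5 by CPM. Its samples were at 9.51, 8.15, 8.61, 8.59 and 8.29 CPM in WT and at 13.9, 11.7, 12.1, 12.8 and 12.6 CPM in Dp1Tyb. Replicate 1 was the highest in each genotype, and the groups were 2.21 CPM apart. The log2 fold change was 0.55 ± 0.073 SE (adjusted p = 0.00115), or 1.46-fold, and its 95% interval of 1.31 to 1.63 was the widest on the log2 scale.

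Wrb, the receptor gene for tail-anchored proteins, had the largest change and the smallest spread. It was at 39.4, 42.0, 39.9, 40.5 and 39.4 CPM in WT and at 66.2, 65.7, 65.4, 59.8 and 64.2 CPM in Dp1Tyb. Dp1Tyb replicate 4, the highest sample for Ttc3, was the lowest Dp1Tyb sample here. The log2 fold change was 0.68 ± 0.041 SE (adjusted p = 7.47e-07), or 1.597-fold (95% interval 1.501 to 1.698). The spread of log2 CPM within genotypes was 0.050 for Wrb and 0.090 for Psmg1, the extremes of the 5, against a median of 0.15 over the 114 tested duplicated genes.

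**Figure D1:**
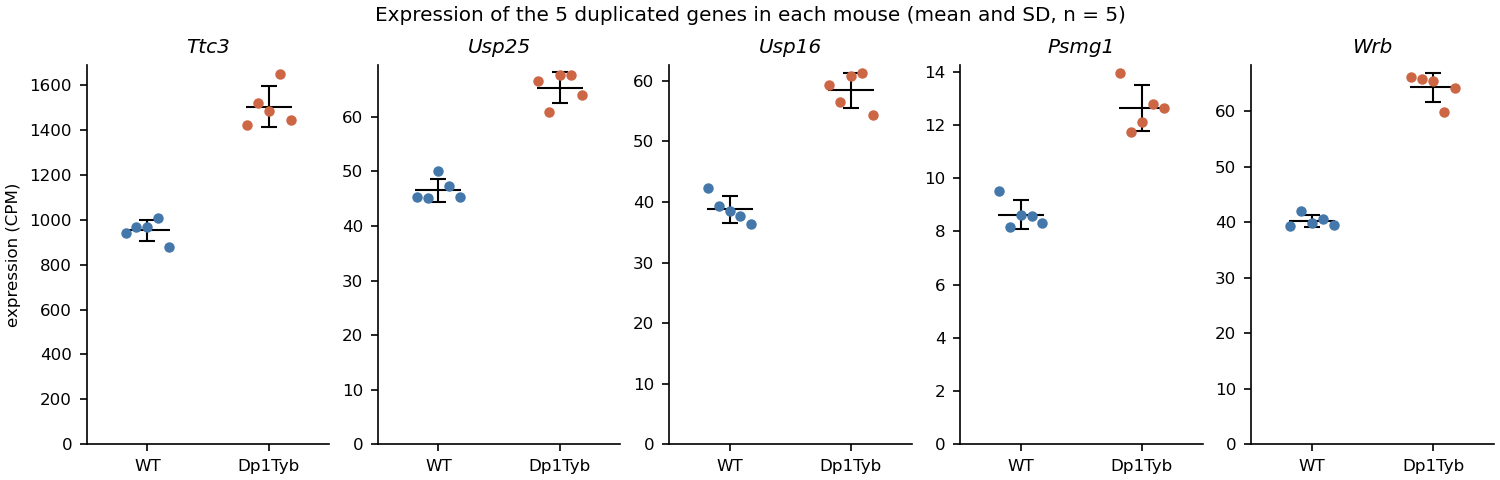
Expression of each gene in CPM on a linear axis from 0, with 1 point per mouse, a horizontal bar for the mean and an error bar for the SD (n = 5 per genotype, replicates 1 to 5 from left to right). All Dp1Tyb points lie above all WT points for each of the 5 genes, with the nearest samples 413 CPM apart for Ttc3 and 2.21 CPM apart for Psmg1.

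The second question was whether the genes rose by the same amount. The 95% intervals of 4 genes included the 1.5-fold ratio, at 0.58 on the log2 scale, while that of Wrb lay just above it, from 0.59 to 0.76. Wrb stayed wholly above the ratio in 3 of 14 other edgeR fits, and Usp25 fell wholly below it in 5 of 14. The difference between 2 members was tested on their log2 ratio within each mouse, in an exact two-sided permutation test over 10 pairs of genes. The change of Usp25 minus that of Wrb was −0.18 ± 0.058 SE on the log2 scale (exact p = 0.0159, adjusted p = 0.0794), with 4 of 5 Dp1Tyb mice below all WT mice for this ratio. The change of Ttc3 minus that of Usp25 was 0.17 ± 0.055 SE (exact p = 0.0159, adjusted p = 0.0794), with 4 of 5 Dp1Tyb mice above all WT mice. Neither passed after adjustment, and the other 8 pairs had adjusted exact p-values from 0.298 to 0.873. The smallest p this design allows is 0.00794.

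Against the other duplicated genes, the 5 genes ranked 23 (Wrb), 27 (Ttc3), 41 (Usp16), 50 (Psmg1) and 66 (Usp25) of 114 by log2 fold change, where the median over the region was 0.53. The log2 level of each gene minus the median of the other tested duplicated genes in the same mouse was compared between genotypes by the exact permutation test. For Wrb this difference was 0.16 ± 0.058 SE (exact p = 0.0317, adjusted p = 0.159), with 3 of 5 Dp1Tyb mice above all WT mice. The values for Ttc3 and Usp16 were 0.14 ± 0.083 SE and 0.075 ± 0.081 SE, and those for Usp25 and Psmg1 were −0.025 ± 0.055 SE and −0.021 ± 0.095 SE, with adjusted exact p-values from 0.417 to 0.841. The reference in this test is a median of levels and not of fold changes. Its sign can therefore differ from the rank, as for Psmg1, whose log2 fold change of 0.55 was above the median of 0.53. None of the 5 passed the test after adjustment.

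Other genes of protein turnover and folding in the duplicated region rose alongside. The list held Ltn1, an E3 ubiquitin ligase of ribosome quality control, Cct8, a subunit of the TRiC chaperonin, Hspa13, a member of the Hsp70 family, and Dnajc28, a J-domain protein. All 4 were called higher in Dp1Tyb, as were 59.6% of the 114 tested duplicated genes. Cct8 had 148 ± 6.80 CPM in the WT mice and 245 ± 9.88 CPM in the Dp1Tyb mice (SD, n = 5 each), 1.65-fold (log2 fold change 0.72 ± 0.041 SE, adjusted p = 7.47e-07). The log2 fold changes of Hspa13, Dnajc28 and Ltn1 were 0.68 ± 0.047 SE, 0.67 ± 0.068 SE and 0.58 ± 0.045 SE (adjusted p = 2.38e-06, 8.09e-05 and 8.82e-06). Cct8 shares 6.22% of its exon length with Usp16 on the other strand. The duplicated set of this kind included 9 genes that rose between 1.40-fold and 1.65-fold.

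**Figure D2:**
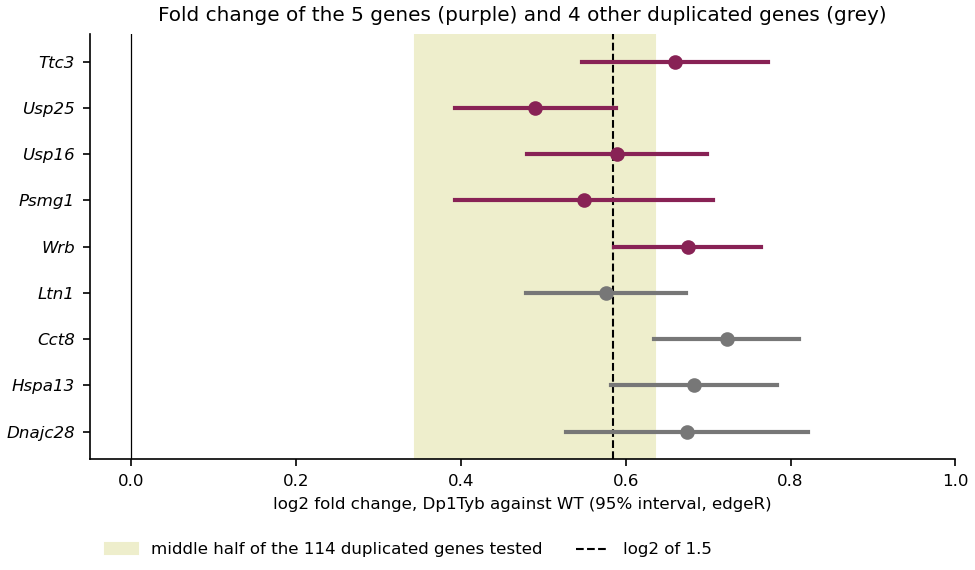
Log2 fold change (Dp1Tyb against WT) of the 5 genes in purple and of Ltn1, Cct8, Hspa13 and Dnajc28 in grey, with 95% intervals from edgeR. The dashed line marks the log2 of 1.5 and the shaded band runs from 0.34 to 0.64, the middle of the 114 tested duplicated genes; Usp25 lies lowest at 0.49 and Cct8 highest at 0.72.

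The third question was whether partners that have no extra copy followed. Psmg2, the partner of Psmg1 in their heterodimer, had WT and Dp1Tyb means of 12.3 ± 0.592 and 12.7 ± 0.773 CPM (SD, n = 5 each; log2 fold change 0.046 with a 95% interval of −0.096 to 0.19). The Psmg1 to Psmg2 ratio of CPM within a mouse was 0.754, 0.653, 0.740, 0.738 and 0.640 in WT replicates 1 to 5 and 1.07, 0.925, 0.889, 1.11 and 1.00 in Dp1Tyb replicates 1 to 5. Reads of Psmg1 went from fewer than those of Psmg2 in every WT mouse to about the same number in Dp1Tyb. CPM are not divided by exon length, so this ratio does not give the relative number of transcripts. The ratio differed between the genotypes by 0.50 ± 0.078 SE on the log2 scale (exact permutation test, p = 0.00794, the smallest possible, adjusted over the 4 ratios 0.00794).

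Camlg, which forms the receptor with Wrb, was at 26.6 ± 0.808 and 26.1 ± 1.39 CPM (log2 fold change −0.025, 95% interval −0.13 to 0.084). The Wrb to Camlg ratio was 1.51, 1.57, 1.51, 1.58 and 1.42 in WT and 2.49, 2.41, 2.43, 2.52 and 2.47 in Dp1Tyb. Of the 4 ratios this one had the largest difference and the smallest error, at 0.70 ± 0.030 SE on the log2 scale (exact permutation test, p = 0.00794).

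The deubiquitinases were set beside their closest relatives outside the region, Usp28 for Usp25 and Usp45 for Usp16. Usp28 had a log2 fold change of −0.028 (95% interval −0.15 to 0.091) and Usp45 of 0.034 (95% interval −0.073 to 0.14). The mean Usp25 to Usp28 ratio went from 1.41 ± 0.121 to 2.02 ± 0.105 (SD, n = 5), and that of Usp16 to Usp45 from 0.579 ± 0.0178 to 0.852 ± 0.0308. Neither ratio overlapped between the genotypes, with ranges of 1.28 to 1.57 against 1.91 to 2.14 and of 0.563 to 0.603 against 0.809 to 0.887. The differences were 0.52 ± 0.065 SE and 0.56 ± 0.031 SE on the log2 scale (exact permutation test, p = 0.00794 for both). In all 4 pairs, 5 of 5 Dp1Tyb mice lay above every WT mouse. Each ratio carries the rise of the duplicated gene, which by itself already separated the genotypes. The ratio tests therefore cannot show whether a partner or relative followed, which is read from the interval of its own log2 fold change.

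**Figure D3:**
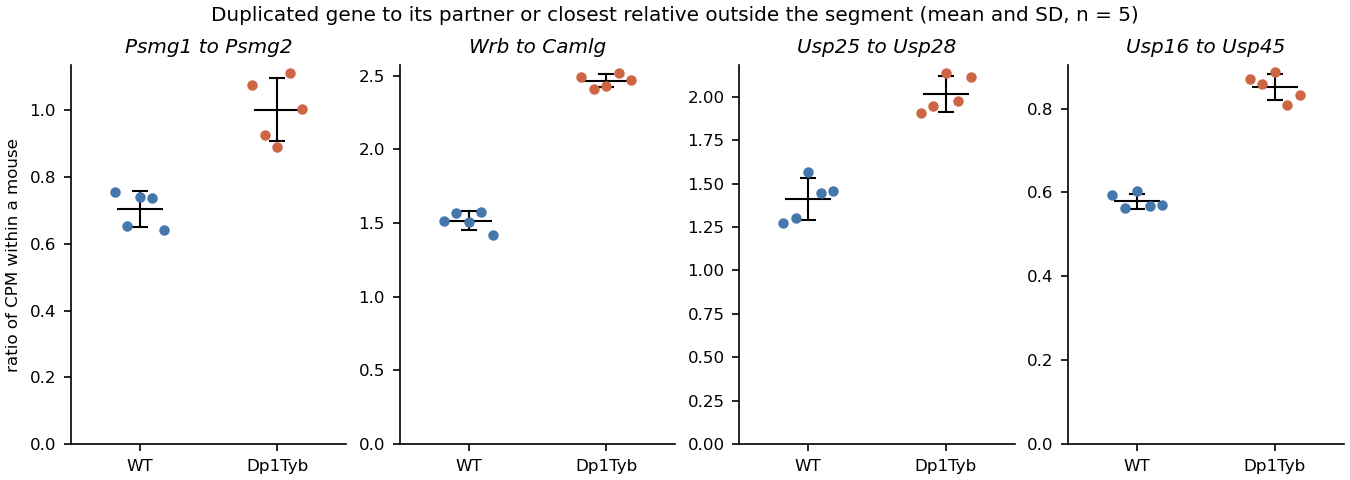
Ratio of CPM within each mouse between a duplicated gene and its partner (Psmg2, Camlg) or closest relative (Usp28, Usp45) outside the region, with 1 point per mouse, the mean and the SD (n = 5 per genotype). The Dp1Tyb points lie above the WT points in each panel, and the Wrb to Camlg ratio goes from 1.52 to 2.46 on average.

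The wider pathways were described by counts, with the 5 genes left out and against 1.11% of all tested genes called in either direction by edgeR and 3.2% by DESeq2. An unadjusted p under 0.05 was found for 14.4% of all tested genes. Of the other proteasome assembly chaperones, 0 of 7 tested were called by edgeR or DESeq2 and 0 had an unadjusted p under 0.05, with a median log2 fold change of 0.024. The 2 with the smallest p were Psmd5 (0.071 ± 0.045 SE, adjusted p = 0.494) and Psmg3 (−0.14 ± 0.13 SE, adjusted p = 0.656). Of the 17 genes of the 20S core, 0 were called by either tool and 1 had an unadjusted p under 0.05 (Psmb7). The 2 with the smallest p were Psmb7 (0.10 ± 0.037 SE, adjusted p = 0.23) and Psma1 (0.12 ± 0.057 SE, adjusted p = 0.376). Of the 19 genes of the 19S regulatory particle, which unfolds tagged proteins, 0 were called by edgeR, 1 by DESeq2 and 3 had an unadjusted p under 0.05. Psmd1, the gene called by DESeq2, was at 103 ± 6.29 CPM in WT and 117 ± 5.18 in Dp1Tyb (log2 fold change 0.18 ± 0.047 SE, adjusted p = 0.0948 in edgeR), and Psmd12 followed at 0.15 ± 0.044 SE (adjusted p = 0.157). The median log2 fold change of the 20S and 19S lists was 0.031 and 0.053, against −0.0041 over all tested genes.

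The genes around Wrb were counted in the same way. Of the other 6 genes of tail-anchored protein targeting, 0 were called by edgeR or DESeq2 and 0 had an unadjusted p under 0.05. Their log2 fold changes lay between −0.079 (Bag6, the chaperone that captures these proteins, adjusted p = 0.418) and 0.045 (Ubl4a, adjusted p = 0.664). Of 22 genes coding for tail-anchored proteins, 1 was called by edgeR and by DESeq2, 6 had an unadjusted p under 0.05, of which 5 were higher and 1 lower, and 3 did not overlap between the genotypes. The median log2 fold change of this list was 0.038, against −0.0041 over all tested genes. Over all tested genes, 1.11% were called by edgeR, 3.2% by DESeq2, 14.4% had an unadjusted p under 0.05 and 3.68% did not overlap. The called gene, Vamp1, a synaptic vesicle SNARE, was at 129 to 152 CPM in WT and 156 to 173 in Dp1Tyb, without overlap, which was so in either direction for 3.68% of all tested genes (log2 fold change 0.22 ± 0.047 SE, adjusted p = 0.0447). Leaving out a single mouse ended this call in 8 of 10 fits.

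Among the other 46 tested ubiquitin-specific proteases, 1 was called by edgeR and 5 by DESeq2, and 7 had an unadjusted p under 0.05, 6 of them higher. Over all tested genes the shares in either direction were 1.11%, 3.2% and 14.4%. Of the 46 proteases, 6 did not overlap between the genotypes, against 3.68% of all tested genes in either direction. The median log2 fold change of the 46 was 0.0061. Usp14, a deubiquitinase that sits on the proteasome, was at 105 to 121 CPM in WT and 124 to 139 in Dp1Tyb (log2 fold change 0.20 ± 0.044 SE, adjusted p = 0.0479). The edgeR call of Usp14 was lost in 8 of 10 fits without one mouse, and 26% of its exon length is shared with Thoc1 on the other strand. The other 4 that DESeq2 called, Usp46, Usp22, Cyld and Usp20, had log2 fold changes of 0.14, 0.15, 0.17 and 0.12 and edgeR adjusted p-values of 0.0507, 0.0526, 0.058 and 0.0886. These increases were between 1.09-fold and 1.15-fold, below the interval of any of the 5 members.

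Of 19 other writers and erasers of histone H2A ubiquitin, the mark that Usp16 removes, 0 were called by edgeR, 1 by DESeq2 (Usp22) and 3 had an unadjusted p under 0.05. After Usp22, described above, the smallest p was that of Pcgf1, a Polycomb subunit (−0.15 ± 0.067 SE, adjusted p = 0.328). Of 6 genes reported around Ttc3, among them Akt1, Akt2 and Cit, 0 were called by either tool and 0 had an unadjusted p under 0.05. The log2 fold changes of Akt1 and Akt2 were 0.046 ± 0.038 SE and −0.042 ± 0.047 SE, and Cit was at −0.11 ± 0.063 SE (adjusted p = 0.465). Of 12 cytosolic heat shock chaperones, 0 were called by either tool and 1 had an unadjusted p under 0.05. This was Hspb1, a small heat shock protein gene, at 3.02 ± 0.401 CPM in WT and 2.21 ± 0.482 in Dp1Tyb (log2 fold change −0.47 ± 0.15 SE, adjusted p = 0.192), followed by Hsp90ab1 (0.095 ± 0.050 SE, adjusted p = 0.406).

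**Figure D4:**
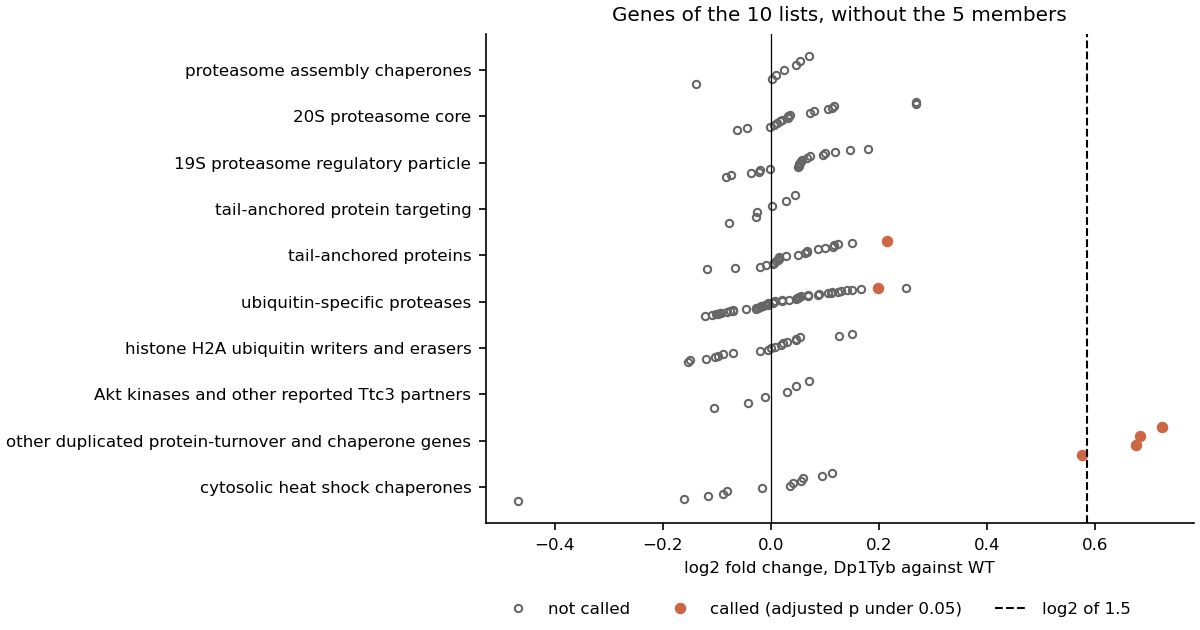
Log2 fold change (Dp1Tyb against WT) of each tested gene of the 10 lists, 1 point per gene, with the 5 members left out. Filled points were called by edgeR at an adjusted p under 0.05: Vamp1 at 0.22, Usp14 at 0.20 and the 4 other duplicated genes between 0.58 and 0.72; the dashed line marks the log2 of 1.5.

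Likeness of pattern was measured as the root mean square difference between the log2 CPM profiles of 2 genes over the 10 mice, each centred on its own mean. A profile includes the genotype difference, so duplicated genes are alike by their shared dosage. The genes closest to Ttc3 were Hspa13, at 0.038, and Synj1, at 0.040, against a median of 0.37 over the 17236 other tested genes. Cyyr1 and Tiam1 were closest to Usp25 (0.051 and 0.059), Paxbp1 and Ltn1 to Usp16 (0.059 and 0.060), and App and Ifngr2 to Wrb (0.059 and 0.060). All of these lie in the duplicated region. For Psmg1 the closest was Col4a1, a basement membrane collagen gene on chromosome 8, at 0.064, followed by Ets2, at 0.069. Col4a1 was itself called higher in Dp1Tyb (log2 fold change 0.52, edgeR adjusted p = 6.02e-05). Its likeness to Psmg1 therefore includes a genotype difference as well. Of the 10 closest genes, those in the region numbered 10 for Ttc3, Usp16 and Wrb, 9 for Psmg1 and 8 for Usp25. Among the members themselves, Usp16 and Psmg1 were the most alike, at 0.079.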

How the data were processed

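Libraries were made from total RNA of whole hippocampi with a stranded poly(A) kit and read as paired ends. The deposited counts are whole reads per Ensembl gene, which the authors obtained by trimming with Trim Galore, mapping to GRCm38 with TopHat 2.0.12, discarding reads with several alignments and counting with htseq-count; the strand setting and annotation release are not given in the sources used here. A table of the authors' normalized values and a table of their DESeq2 1.6.3 comparison (fold changes, p-values) were not used. Of 43629 genes, 42462 matched GENCODE M21. Samples were grouped by their titles. Genes kept by filterByExpr were tested with edgeR 4.0.16 in R 4.3.3 (TMM normalization, quasi-likelihood F-test, no covariates, Benjamini-Hochberg adjustment over 17237 genes, called at an adjusted p under 0.05). Standard errors and 95% intervals follow from the same test. CPM were scaled with TMM factors. RPKM used exon lengths, and log2 CPM a prior count of 2. Single values were compared with exact two-sided permutation tests (SciPy 1.17.1), adjusted within each family. Alternatives were DESeq2 1.42.0, median-of-ratios factors, TMM without duplicated genes, no filter, a prior count of 0.5, a replicate block and leaving out each mouse. The edgeR and DESeq2 steps were tested on simulated data. No 2 libraries agreed within sampling noise (lowest chi-square per degree of freedom 4.96 among 45 pairs). The labels give no batch or date, so no value within batches could be computed. The members, lists and partner genes were chosen with earlier results of these data known. The text names the members, their partners or relatives, Akt1 and Akt2, the other duplicated genes of this kind, in each list the called genes or otherwise the 2 with the smallest p, and the 2 genes closest to each member; Usp46, Usp22, Cyld and Usp20 were added after their values were seen. Paaf1 was not matched, and Usp26 and Usp44 were too low to be tested. A result that the rule for named genes would add is not reported here.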

Additional observations from a re-analysis of the deposited data

Results flagged for a closer look

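The most extreme mouse was examined in 62 sets of 5 values, by its gap to the nearest mouse over the range of the set. In 4 sets the gap passed the 95% limit, and chance alone gives about 3.1. WT replicate 2 had the highest log2 ratio of Usp16 to Psmg1 among the WT mice, at 2.26 against 2.15 for the nearest mouse, a gap of 0.802 of the range. WT replicate 1 had the highest log2 ratio of Usp16 to Wrb, at 0.10 against −0.054, a gap of 0.714 of the range. WT replicate 2 had the highest level of Wrb relative to the median of the duplicated genes, at 1.78 against 1.64 on the log2 scale, a gap of 0.743 of the range. Dp1Tyb replicate 3 had the lowest mean log2 level of the microglia markers, at 4.89 against 5.16, a gap of 0.824 of the range.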

How the results depend on the processing

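All 5 members were called in each of the 15 alternatives. Without one mouse, the log2 fold change ranged from 0.62 to 0.68 for Ttc3, 0.48 to 0.52 for Usp25, 0.57 to 0.62 for Usp16, 0.51 to 0.59 for Psmg1 and 0.66 to 0.70 for Wrb, with a largest adjusted p of 0.00564 (Psmg1). The 4 ratios to a partner or relative passed the test in each alternative run, and without one mouse the difference of Wrb to Camlg was 0.68 to 0.71. Differences near 0 changed sign: Ttc3 minus Wrb was −0.074 to 0.017 without one mouse (above 0 at 0.0038 on leaving out WT replicate 4, and at 0.017 and 1.2e-07 on leaving out Dp1Tyb replicates 1 and 5), Usp25 against the region was −0.062 to 0.0039 (0.0039 without Dp1Tyb replicate 5), and Psmg1 against the region was −0.094 to 0.023 (0.014, 0.0090 and 0.023 without Dp1Tyb replicates 2, 3 and 5) and 0.024 with protein-coding duplicated genes only. Over all genes, 191 were called, 507 with DESeq2, 315 with the replicate block and 105 to 218 without one mouse (105 on leaving out WT replicate 4 or Dp1Tyb replicate 2, 111 for Dp1Tyb replicate 3 and 127 for WT replicate 5). The count of other ubiquitin-specific proteases was 1, and was 5 with DESeq2, 3 with TMM factors from genes outside the region, 0 with median-of-ratios factors and 0 to 3 without one mouse. The tail-anchored proteins had 0 to 1 called without one mouse. The 19S particle had 1 called with DESeq2 and 1 with the replicate block, and the histone H2A list had 1 with DESeq2 and 1 with TMM factors from genes outside the region. The causes were not tested. The replicate numbers do not pair the mice by any label: deviations from the group means of same-numbered mice correlated at −0.069 to 0.28 across genes, 3 of 5 pairs over 0.1, and 1 of 10 mice correlated best with its own number. With the replicate block the members stayed called, at 0.66 (Ttc3), 0.49 (Usp25), 0.59 (Usp16), 0.55 (Psmg1) and 0.67 (Wrb), and the exact sign-flip permutation test of the paired differences between members cannot go below 0.0625.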
